A study of Homo sapiens with 12 samples.

Results

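Interferons are secreted by cells that sense viral or misplaced nucleic acid, and they act through receptors, JAK kinases and STAT transcription factors to switch on a large set of antiviral genes. That set includes the sensors of double-stranded RNA themselves, so it is often read in cells that carry an shRNA, which is made as a hairpin of RNA. The same signals raise MHC class I, the surface complex that presents peptides to cytotoxic T cells and natural killer cells. A list of 38 such genes, chosen by name from the gene table, was followed here in rhabdomyosarcoma (RMS) cells with and without knockdown of KDM3A, a demethylase of histone H3. It holds 3 RNA sensors, 5 transcription factors, 4 IFIT and 4 OAS genes, 10 other effectors, 4 membrane restriction factors and 8 genes of MHC class I presentation with PD-L1, out of 65975 gene identifiers. A member name stands on 76 entries of the table. The 38 further identifiers that 9 members have were listed at 0 in all 12 libraries, so 1 entry per member was used.

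RNA was sequenced from 2 patient-derived lines, RD as fusion-negative RMS (FN-RMS) and Rh30 as fusion-positive RMS (FP-RMS), each a single line for its subtype. Cells of both lines were transduced with lentivirus and selected with 1 µg/ml of puromycin. They carried either a non-targeting Scrambled shRNA (Scramble) or the KDM3A-targeting shRNA KDM3A-sh2, so every group held an shRNA and the values compare one hairpin with another. No library of cells without an shRNA and none with another KDM3A-targeting hairpin was analysed here, so what KDM3A loss does and what this hairpin does cannot be told apart. RD cells were grown in DMEM and Rh30 cells in RPMI, and there were 3 libraries in each of the 4 groups. Whether these came from separate cultures is not given in the sources used here. The library names of Rh30 Scramble all end in the number 1, where those of each other group end in 1, 2 and 3, and what that number marks is not given either. Thus p-values measure the spread between the libraries, which may be technical.

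KDM3A itself fell from 33.5 ± 2.5 to 12.2 ± 1.1 FPKM in RD cells and from 29.7 ± 2.14 to 14.1 ± 1.15 FPKM in Rh30 cells (mean ± SD, n = 3 each). FPKM divides the fragments of a gene by the length of its exons and by the reads mapped in its library. The values summed to between 1198300 and 1379197 FPKM per library, and the relative depth that the spacing of low values gave was 1.05 to 1.21 in RD Scramble against 0.865 to 1.00 in RD KDM3A-sh2 and 0.999 to 1.02 against 0.946 to 0.998 in Rh30. The number of reads behind a value is unknown, and the part of depth in the results was not tested. Of 8 muscle-lineage markers 7 reached 1 FPKM in every group (all but MYF5), with sums of 3261 to 4604 FPKM. The 6 blood markers summed to 0.37 to 1.11 FPKM and the 4 endothelial markers to 2.02 to 4.65 FPKM.

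Genes of this set are known for an interferon-stimulated response element (ISRE) in their promoters, which a complex with STAT2 and IRF9 and the other IRF proteins bind, and some carry a gamma-activated site (GAS). RefSeq promoters (GRCh38.p14, 250 bases before to 50 after the start) were matched for 30 of the 38 members, and not for IRF3, IRF7, IFIT2, OAS2, OASL, MX2, IFITM2 and HLA-E. The ISRE core, searched as GAAA, any 2 bases and GAAA again on either strand, was found in 21 of these 30, and in 3.57% of all 35116 promoters. The GAS letters TTCNNNGAA, which can overlap an ISRE core, were found in 8 of the 30 and in 7.66% of all promoters. A match is a description of the letters and not a bound site. The windows below cover some of the members whose values are given in full, and not every match of these members. They are written 5′ to 3′ on the strand of the gene, with the matched letters in capitals. The first 6 are ISRE cores of members that fell in RD cells or, for TAPBP, rose there. IFIT5 is a neighbour of the other IFIT genes whose level did not pass the test in either line, and its window holds the same core. ISRE cores of B2M and EIF2AK2, which did not pass the test in RD cells, and of IFITM3, which fell there, are not shown. The last 2 windows are marked at a GAS match, in IFI35, which rose in RD cells, and in IRF1, which fell in both lines. The IFITM1 window also holds a GAS match, which overlaps its ISRE core and is not marked.
IFIT1 (chr10:89392497-89392526, + strand): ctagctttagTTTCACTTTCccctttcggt
IFIT3 (chr10:89327865-89327894, + strand): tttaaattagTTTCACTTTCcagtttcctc
ISG15 (chr1:1013380-1013409, + strand): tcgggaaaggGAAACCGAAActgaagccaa
IFI44 (chr1:78649761-78649790, + strand): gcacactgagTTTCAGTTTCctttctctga
IFITM1 (chr11:314024-314053, + strand): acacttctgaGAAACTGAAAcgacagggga
TAPBP (chr6:33314079-33314108, - strand): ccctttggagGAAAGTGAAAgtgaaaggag
IFIT5 (chr10:89414554-89414583, + strand): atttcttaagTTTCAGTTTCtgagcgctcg
IFI35 (chr17:43006752-43006781, + strand): aggcagggatTTCACGGAAatgaaagtgga
IRF1 (chr5:132490878-132490907, - strand): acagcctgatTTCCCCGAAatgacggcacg

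The first comparison was between the lines with Scramble. RD cells held every one of the 38 genes at a mean of at least 1 FPKM, with a median over the members of 28.8 FPKM, while Rh30 cells held 23 of them at that level, with a median of 3.67 FPKM. In Rh30 Scramble the OAS and MX genes, IFIT1, IFIT2, IFIT3 and the classical MHC class I genes HLA-B and HLA-C had means of at most 1.12 FPKM, while IFIT5 was at 4.98 FPKM, and IFIH1 (the RNA sensor MDA5), MX1, OAS2 and OASL were listed at 0 in all 3 libraries. All of 20 housekeeping genes looked at were above 0 in all 12 libraries. B2M, the light chain of every MHC class I molecule, was by contrast abundant in both lines.

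**Figure D1:**
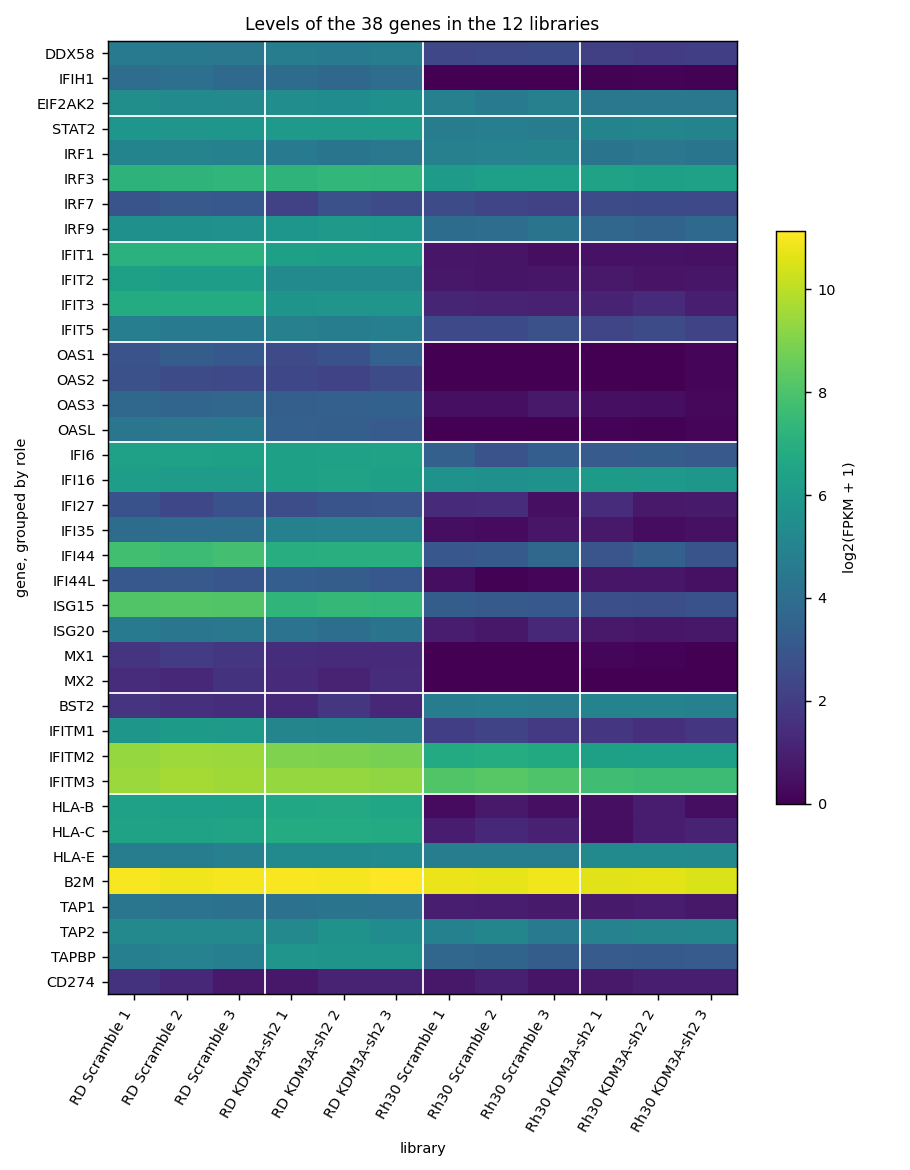
Level of each of the 38 genes (rows, grouped by role) in each of the 12 libraries (columns), as log2(FPKM + 1) on the colour scale. B2M is the brightest row in all 12 libraries, and the IFIT, OAS and MX rows are dark in the 6 Rh30 libraries.

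The difference between the lines was tested with limma on log2(FPKM + 1), leaving out genes whose mean over the 6 libraries was under 1 FPKM. Of 37 members tested, 33 were lower in Rh30, 1 was higher and 3 did not pass the test, at an adjusted p of at most 0.05. Of all 18357 genes tested, 39.6% were lower and 35.0% higher. Members near 0 in Rh30 entered through their RD level alone and had to differ, so these counts describe the list and are no support for a difference of the set. The median difference was -2.58 (log2) over the members tested and -0.04 over all genes tested, and rescaling every library to the same sum shifted the latter by -0.10.

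IFIT1, whose product binds viral RNA ends, stood at 138, 138 and 135 FPKM in RD Scramble and at 0.606, 0.493 and 0.346 FPKM in Rh30 Scramble. ISG15, a ubiquitin-like modifier, was at 271, 281 and 278 FPKM in RD Scramble and at 8.58, 7.99 and 7.37 FPKM in Rh30 Scramble, 34.6-fold lower by the means (adjusted p = 6.07e-09). HLA-C was at 83.0, 84.5 and 89.8 FPKM against 0.776, 1.34 and 1.02 FPKM. No library of one line reached the range of the other for these 3 genes. MHC class I genes vary between people, and the part that mapping to 1 reference genome has in the HLA-B and HLA-C levels was not tested.

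The exception in the other direction was BST2 (tetherin, which holds budding virus at the cell surface). It was at 25.3, 26.4 and 24.4 FPKM in Rh30 Scramble and at 2.19, 1.94 and 1.70 FPKM in RD Scramble, 13.1-fold higher in Rh30 (adjusted p = 1.23e-07). The 3 members that did not pass the test were IRF1, HLA-E and CD274 (PD-L1). HLA-E, which presents signal peptides to natural killer cells, had means of 25.8 ± 1.66 FPKM in RD and 24.6 ± 0.338 FPKM in Rh30 (SD, n = 3 each), a log2 difference of -0.06 with a 95% interval of -0.20 to 0.08. IRF1 had means of 29.9 ± 1.46 and 29.4 ± 1.25 FPKM, a log2 difference of -0.02 (interval -0.16 to 0.12). B2M was lower in Rh30 by 0.15 on the log2 scale (adjusted p = 0.0208). The lines differ in origin, subtype and medium, and these cannot be told apart.

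**Figure D2:**
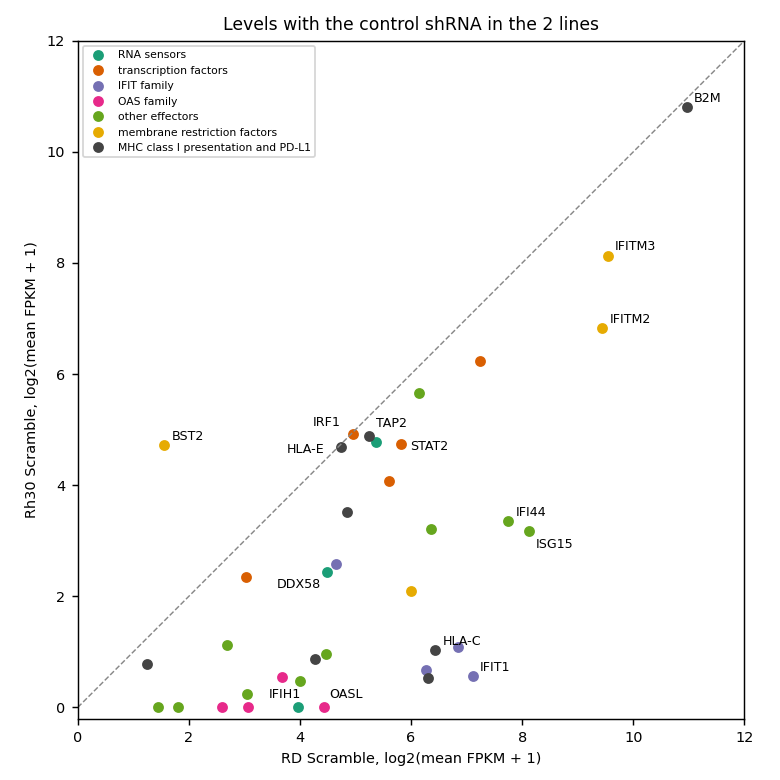
Mean level of each of the 38 genes in Rh30 Scramble (vertical axis) against RD Scramble (horizontal axis), both as log2(mean FPKM + 1), with the colour giving the role and the dashed line marking equal levels. BST2 alone lies far above the line, HLA-E and IRF1 lie on it, and the genes along the bottom are near 0 in Rh30.

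The second comparison asked what KDM3A-sh2 changed in RD cells. Of the 38 members 14 fell, 8 rose and 16 did not pass the test. IFIT1, IFIT2, IFIT3, OASL, IFI44, ISG15 and IFITM1 fell by 1.69- to 2.25-fold, whereas HLA-B, HLA-C, HLA-E and TAPBP of the MHC class I pathway and IFI35 rose by 1.26- to 1.95-fold. The RNA sensors DDX58 (RIG-I), IFIH1 and EIF2AK2 (PKR) were among the members that did not pass the test. In RNA from bulk cultures, fewer cells that express a gene and less RNA per cell cannot be told apart.

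All 38 members passed the filter on low values in RD cells. Over all 17988 genes tested, 19.5% fell and 21.6% rose, against 14 and 8 of the 38 members (36.8% and 21.1%). With a change of at least 1.5-fold on the fitted log2 scale, 7 members fell and 2 rose, and 4.89% and 5.21% of all genes did. The log2 fold change (log2FC) of a gene is the difference of its group means of log2(FPKM + 1), and its median was -0.08 over the members and 0.01 over all genes. The 3 libraries of one group did not overlap those of the other in 22 members, and in 53.4% of all genes tested. With 3 libraries against 3, an exact two-sided permutation test of 1 gene cannot go below p = 0.1, which is its value for these 22 members, so smaller p-values rest on limma's shared spread. Leaving out KDM3A-sh2 replicate 1 left 9 members lower, the calls of IRF7, IFITM3, OAS3, ISG20 and MX1 being lost.

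**Figure D3:**
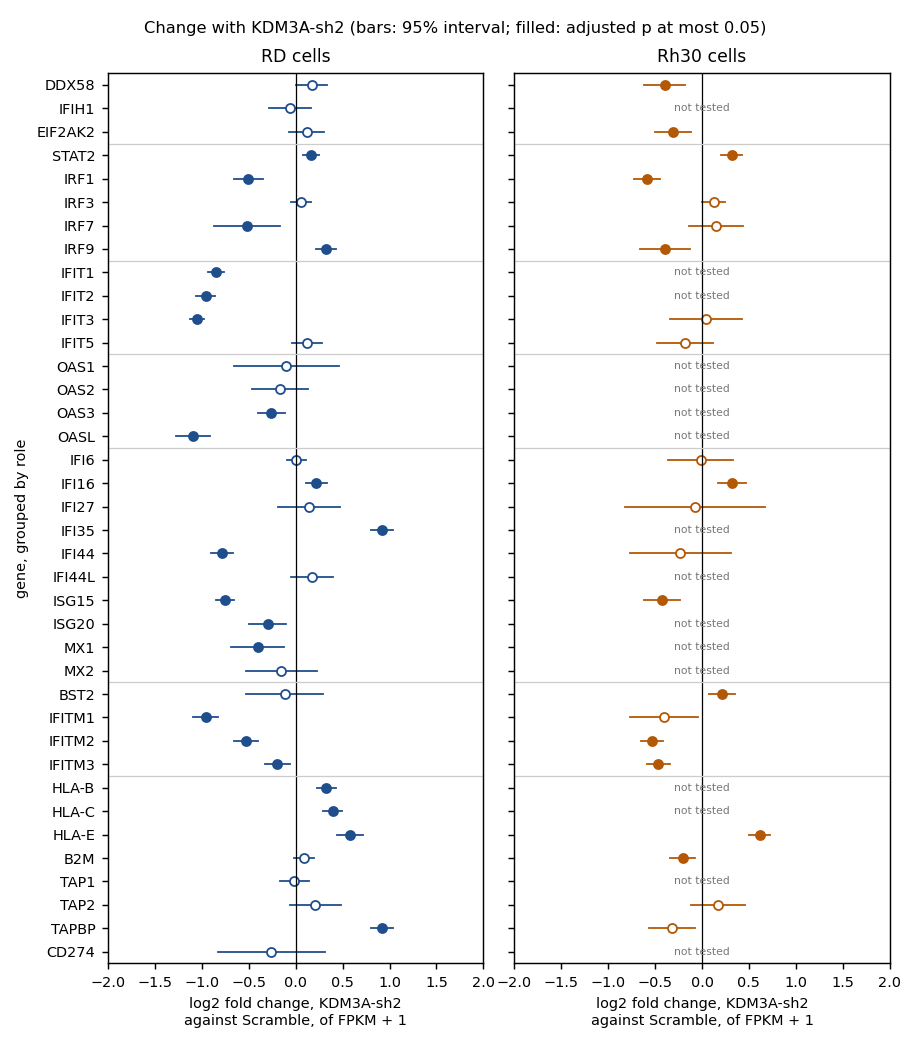
Log2 fold change of KDM3A-sh2 against Scramble (horizontal axis, of FPKM + 1) for each of the 38 genes (rows, by role) in RD cells (left) and Rh30 cells (right). Lines are 95% intervals from limma and filled points have an adjusted p of at most 0.05. IFIT1, IFIT2, IFIT3, OASL, IFI44, ISG15 and IFITM1 lie on the left in RD and IFI35 and TAPBP on the right, while 16 genes were too low to be tested in Rh30.

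The IFIT genes form a cluster on chromosome 10. IFIT3 (ENSG00000119917, GRCh38 chromosome 10 from 89327894 to 89340971) was at 115, 113 and 114 FPKM in the 3 RD Scramble libraries and at 53.8, 55.1 and 54.8 FPKM in the 3 RD KDM3A-sh2 libraries. Every KDM3A-sh2 value lay below every Scramble value, and the log2FC was -1.05 (SE 0.03, adjusted p = 1.18e-05). IFIT2 (ENSG00000119922, chromosome 10 from 89283694 to 89309276) went from 78.2, 75.0 and 74.2 to 39.6, 37.7 and 38.1 FPKM. Its log2FC was -0.96 (SE 0.04, adjusted p = 1.85e-05). Of the 50-base words in the transcripts of IFIT2, 7.5% also occur in AL353751.1, an annotated gene that overlaps it on the same strand. IFIT1 (ENSG00000185745, chromosome 10 from 89392546 to 89406486) went from the values above to 78.2, 74.5 and 74.7 FPKM, a log2FC of -0.85 (SE 0.04, adjusted p = 1.64e-05). The 3 proteins are known to act as a complex on viral RNA, and their libraries did not overlap between groups.

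IFIT5 (ENSG00000152778, chromosome 10 from 89414586 to 89421001), the next gene along the cluster, was at 26.3, 23.8 and 22.7 FPKM with Scramble and at 27.5, 24.9 and 26.8 FPKM with KDM3A-sh2. The groups overlapped, and the log2FC was 0.12 (95% interval -0.04 to 0.29, adjusted p = 0.207). The spans of IFIT1, IFIT2 and IFIT3 lie across from LIPA, a lysosomal lipase gene on the opposite strand. LIPA also fell in RD cells, from 91.5 ± 4.08 to 64.7 ± 3.11 FPKM (log2FC -0.49, adjusted p = 0.000447). The libraries were directional, but the strand setting of the counting is not given in the sources used here, so the part of LIPA reads in these values was not tested. In Rh30 Scramble LIPA was at 11.4 ± 0.696 FPKM with IFIT1 and IFIT2 under 1 FPKM, and it fell there too (log2FC -0.61, adjusted p = 0.0262).

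The OAS proteins make a second messenger from double-stranded RNA that activates RNase L. OASL (ENSG00000135114, chromosome 12 from 121019111 to 121039242), the family member without that activity, was at 19.7, 20.3 and 21.5 FPKM in RD Scramble and at 9.67, 9.44 and 8.23 FPKM with KDM3A-sh2. This was the largest fall among the 38 members in RD, with a log2FC of -1.09 (SE 0.08, adjusted p = 9.03e-05). OAS3 fell from 11.77 ± 0.377 to 9.68 ± 0.348 FPKM (adjusted p = 0.0146), and this call was lost in 2 of 15 alternative analyses. OAS1 and OAS2 had overlapping groups and log2FC values of -0.10 and -0.17 (adjusted p = 0.77 and 0.32).

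Among the other effectors the changes went both ways. IFI44 (ENSG00000137965, chromosome 1 from 78649796 to 78664078), an interferon-induced cytoplasmic protein, was at 218, 199 and 224 FPKM with Scramble and at 121, 125 and 125 FPKM with KDM3A-sh2 (log2FC -0.79, SE 0.05, adjusted p = 6.36e-05). ISG15 (ENSG00000187608, chromosome 1 from 1001138 to 1014540) went from 271, 281 and 278 to 156, 170 and 165 FPKM, a log2FC of -0.75 (SE 0.04, adjusted p = 3.11e-05). Both genes fell without overlap between groups, while IFI44L, the neighbour of IFI44, had overlapping groups and a log2FC of 0.17 (adjusted p = 0.193).

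IFI35 (ENSG00000068079, chromosome 17 from 43006725 to 43014456), a leucine zipper protein that pairs with NMI, went the other way. It was at 14.5, 15.1 and 15.4 FPKM with Scramble and at 28.4, 29.99 and 29.4 FPKM with KDM3A-sh2, so that every KDM3A-sh2 library was above every Scramble library (log2FC 0.92, SE 0.05, adjusted p = 3.98e-05). IFI16, a sensor of DNA, rose by 0.22 on the log2 scale (adjusted p = 0.0103). ISG20, an exonuclease, and MX1, a GTPase that traps viral nucleocapsids, fell with log2FC values of -0.30 and -0.41 (adjusted p = 0.0272 and 0.032). Each lost its call in about as many alternatives as it kept it, ISG20 in 8 of 15 and MX1 in 7 of 14. IFI6 and IFI27 (log2FC values 0.01 and 0.15) and MX2 (-0.15) did not pass the test.

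The IFITM proteins hinder the fusion of virus with cell membranes. IFITM1 (ENSG00000185885, chromosome 11 from 313506 to 315272) was at 58.3, 65.6 and 63.8 FPKM with Scramble and at 32.7, 31.8 and 30.5 FPKM with KDM3A-sh2, a log2FC of -0.96 (SE 0.06, adjusted p = 4.89e-05). IFITM2 (ENSG00000185201, chromosome 11 from 307631 to 315272) went from 650, 724 and 707 to 498, 486 and 453 FPKM (log2FC -0.53, adjusted p = 0.000386). IFITM3 (ENSG00000142089, chromosome 11 from 319669 to 327537) went from 699, 799 and 737 to 663, 668 and 619 FPKM. Its fall of 0.19 on the log2 scale was the smallest of the 3 (adjusted p = 0.03), and it lost its call in 8 of 15 alternatives. These genes are alike in sequence: 32.0%, 34.1% and 17.4% of the 50-base words in the transcripts of IFITM1, IFITM2 and IFITM3 also occur in another gene, so reads could be shared between them and their separate values are uncertain. BST2 was at 1.94 ± 0.242 and 1.75 ± 0.568 FPKM and did not pass the test.

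Of the 8 genes of MHC class I presentation and PD-L1, 4 rose in RD cells and none fell. Over all genes tested in RD, 21.6% rose and 19.5% fell, and these 8 were not tested as a set. TAPBP (ENSG00000231925, chromosome 6 from 33299694 to 33314387) encodes tapasin, which bridges the peptide transporter to empty MHC class I molecules. It was at 26.9, 29.3 and 27.2 FPKM with Scramble and at 54.5, 53.5 and 52.4 FPKM with KDM3A-sh2, about as large a rise as that of IFI35 (log2FC 0.92, SE 0.05, adjusted p = 3.09e-05). HLA-E (ENSG00000204592, chromosome 6 from 30489467 to 30494205) went from 24.9, 24.7 and 27.7 to 38.4, 37.8 and 40.6 FPKM (log2FC 0.58, SE 0.06, adjusted p = 0.000428). In both genes the 2 groups were apart.

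HLA-B rose from 78.3 ± 2.18 to 98.4 ± 3.88 FPKM (adjusted p = 0.00122) and HLA-C from 85.8 ± 3.6 to 113 ± 3.24 FPKM (adjusted p = 0.000584). The call of HLA-B was lost in 1 of 15 alternatives, and its span in GENCODE 29 overlaps that of HLA-C on the same strand. In the transcripts of HLA-B and HLA-C, 2.72% and 5.38% of the 50-base words also occur in another gene. Class I genes are alike and vary between people, so a split of reads between them is uncertain. B2M (ENSG00000166710, chromosome 15 from 44711487 to 44718877) was at 2047, 1919 and 2007 FPKM with Scramble and at 2096, 2026 and 2233 FPKM with KDM3A-sh2. These overlapped, with a log2FC of 0.09 (95% interval -0.02 to 0.20, adjusted p = 0.158). TAP1 and TAP2, the 2 chains of the peptide transporter, had log2FC values of -0.02 and 0.21 (adjusted p = 0.86 and 0.187), and CD274 had -0.26 (adjusted p = 0.425). Of the 50-base words of TAP2, 31.3% also occur in AL669918.1, an annotated gene that overlaps it on the same strand.

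**Figure D4:**
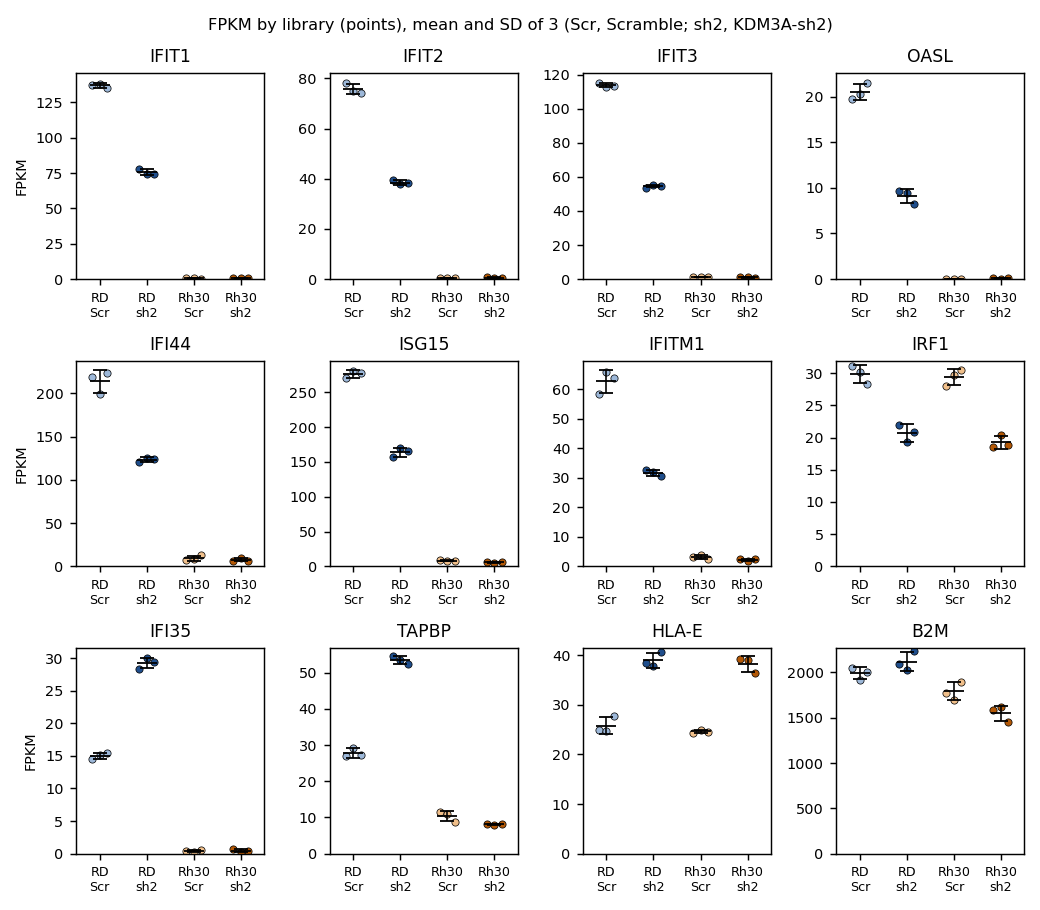
FPKM of 12 of the genes in each library (points), with the mean and SD of the 3 libraries of a group (bars), for RD and Rh30 cells with Scramble (Scr) or KDM3A-sh2 (sh2). Each vertical axis starts at 0 and has its own scale. The first 7 panels fall in RD, IFI35 and TAPBP rise in RD, and IRF1 and HLA-E move the same way in both lines.

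The transcription factors that carry the interferon signal were themselves divided in RD cells. IRF1 (ENSG00000125347, chromosome 5 from 132481609 to 132490798), which interferon gamma induces early, was at 31.1, 30.2 and 28.3 FPKM with Scramble and at 22.0, 19.3 and 20.9 FPKM with KDM3A-sh2 (log2FC -0.51, SE 0.07, adjusted p = 0.00107). IRF7 (ENSG00000185507, chromosome 11 from 612553 to 615999), which drives the genes of type I interferons, was at 6.497, 7.50 and 7.402 FPKM and then at 3.60, 5.77 and 4.87 FPKM. Its log2FC was -0.52 (SE 0.15, adjusted p = 0.0302), a call lost in 6 of 14 alternatives. STAT2 and IRF9, parts of the complex that binds the ISRE, rose by 0.17 and 0.32 (log2; adjusted p = 0.0103 and 0.00151), with means of 55.6 ± 0.978 and 62.5 ± 0.908 FPKM for STAT2 and of 47.3 ± 0.973 and 59.4 ± 2.46 FPKM for IRF9. Of the 50-base words of IRF9, 43.2% also occur in AL136295.5, an annotated gene that overlaps it on the same strand. IRF3 (ENSG00000126456, chromosome 19 from 49659569 to 49665875), which is activated by the sensors without interferon, was at 144, 151 and 158 FPKM and then at 152, 162 and 157 FPKM. These values overlapped (log2FC 0.06, 95% interval -0.05 to 0.16, adjusted p = 0.353).

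The sensors of double-stranded RNA did not pass the test in RD cells. EIF2AK2 (ENSG00000055332, chromosome 2 from 37099210 to 37157065) was at 44.5, 39.6 and 37.2 FPKM with Scramble and at 42.7, 41.8 and 47.3 FPKM with KDM3A-sh2 (log2FC 0.12, 95% interval -0.07 to 0.31, adjusted p = 0.265). DDX58 (ENSG00000107201, chromosome 9 from 32455705 to 32526324) was at 22.7, 21.3 and 20.6 FPKM and at 25.4, 22.2 and 25.6 FPKM (log2FC 0.17, interval 0.00 to 0.34, adjusted p = 0.0966). It passed in 1 of 15 alternatives. IFIH1 had a log2FC of -0.06 (adjusted p = 0.655).

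Set by level, 8 members had at least 100 FPKM in RD Scramble, and 6 of these fell (IFIT1, IFIT3, IFI44, ISG15, IFITM2 and IFITM3), the others being IRF3 and B2M. Of the 21 members between 10 and 100 FPKM, 6 fell and 8 rose. Of the 9 members under 10 FPKM, 2 fell (IRF7 and MX1) and none rose. By promoter letters, the ISRE core was present in 9 of the 10 fallen members with a promoter (all but IRF1), in 1 of the 7 risen members (TAPBP) and in 11 of the 13 that did not pass the test. The GAS letters were present in 2 of 10, 2 of 7 and 4 of 13. Promoters were matched for 10 of the 14 fallen and 7 of the 8 risen members. Other spellings of the ISRE were not searched, so a promoter without a match may still hold one. These are counts over a list chosen by name, with no test. The shares of all genes at each of these levels that fell or rose were not computed. The counts by level therefore do not set the members apart from other genes of like level.

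In Rh30 cells, the same comparison could be made for 22 of the 38 members, with log2FC values from -0.59 to 0.61. DDX58, EIF2AK2, IRF1, IRF9, ISG15, IFITM2, IFITM3 and B2M fell, STAT2, IFI16, BST2 and HLA-E rose, and 10 did not pass the test. Of all 17803 genes tested 13.2% fell and 15.3% rose, and the median log2FC was 0.03, against -0.20 over the 22 members. The largest fall was that of IRF1 and the largest rise that of HLA-E. Among the 22 members the groups did not overlap in 15, as in 45.8% of all genes tested. The number that fell was 5 without KDM3A-sh2 replicate 1 or 2 or without Scramble replicate 1 or 3.

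The other 16 members were under the limit of a mean of 1 FPKM in the 6 Rh30 libraries. Their highest single values ran from 0.022 FPKM (MX2) to 1.42 FPKM (ISG20), with IFIT1 at 0.606, IFIT2 at 0.705, OASL at 0.099, IFI35 at 0.683, HLA-B at 0.805, HLA-C at 1.34 and TAP1 at 0.937 FPKM. IFIT3, just over the limit, was at 1.25, 1.10 and 1.01 FPKM with Scramble and at 1.18, 1.498 and 0.897 FPKM with KDM3A-sh2. These values overlapped (log2FC 0.04, adjusted p = 0.879), and the sign turned without KDM3A-sh2 replicate 2 (-0.06).

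IRF1 in Rh30 was at 28.1, 29.7 and 30.5 FPKM with Scramble and at 18.6, 20.5 and 18.8 FPKM with KDM3A-sh2, a log2FC of -0.59 (SE 0.06, adjusted p = 0.000919). HLA-E was at 24.4, 25.0 and 24.5 FPKM and at 39.2, 39.0 and 36.4 FPKM, a log2FC of 0.61 (SE 0.05, adjusted p = 0.000348). With KDM3A-sh2 the mean of IRF1 was 20.7 FPKM in RD and 19.3 FPKM in Rh30, and that of HLA-E was 38.9 and 38.2 FPKM.

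IFITM2 was at 109, 119 and 108 FPKM with Scramble and at 78.6, 76.9 and 75.8 FPKM with KDM3A-sh2 (log2FC -0.53, adjusted p = 0.000571). IFITM3 was at 275, 299.8 and 265 FPKM and at 209, 199 and 199 FPKM (log2FC -0.47, adjusted p = 0.00135). IFITM1, from 3.196, 3.9 and 2.66 to 2.39, 1.80 and 2.39 FPKM, did not pass the test (log2FC -0.41, adjusted p = 0.0874). ISG15 fell from 7.98 ± 0.604 to 5.67 ± 0.262 FPKM (log2FC -0.43, adjusted p = 0.01). Thus all 3 KDM3A-sh2 libraries lay below the 3 Scramble libraries in each of these 4 genes.

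DDX58 was at 4.21, 4.45 and 4.66 FPKM in Rh30 Scramble and at 3.31, 2.90 and 3.17 FPKM with KDM3A-sh2 (log2FC -0.40, adjusted p = 0.0203). EIF2AK2 was at 28.0, 23.0 and 27.9 FPKM and at 20.9, 20.7 and 21.2 FPKM (log2FC -0.31, adjusted p = 0.0311). B2M was at 1778, 1698 and 1895 FPKM and at 1581, 1614 and 1458 FPKM (log2FC -0.21, adjusted p = 0.0317). The groups were apart in all 3 genes, but the calls were lost in 4 of 14, 8 of 15 and 8 of 15 alternatives. IRF9 fell from 15.96 ± 2.27 to 11.9 ± 1.11 FPKM (adjusted p = 0.0389) and BST2 rose from a mean of 25.4 to one of 29.5 FPKM (adjusted p = 0.0345). Their calls were lost in 8 and 9 of 15 alternatives.

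STAT2 rose in Rh30 from 25.6 ± 0.839 to 32.1 ± 0.878 FPKM (log2FC 0.31, adjusted p = 0.00443) and IFI16 from 49.6 ± 2.33 to 62.2 ± 4.19 FPKM (log2FC 0.32, adjusted p = 0.0111). TAPBP was at 11.6, 10.9 and 8.77 FPKM and at 8.25, 7.95 and 8.07 FPKM, so that the groups were apart but the test was not passed (log2FC -0.32, adjusted p = 0.0589). IRF7 (log2FC 0.15), IFI44 (-0.23), IRF3 (0.13), IFIT5 (-0.18), IFI6 (-0.01), IFI27 (-0.08) and TAP2 (0.17) did not pass it either.

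Of the 22 members tested in both lines, IRF1, ISG15, IFITM2 and IFITM3 fell in both and STAT2, IFI16 and HLA-E rose in both. IRF9 rose in RD and fell in Rh30. The 5 members that passed the test in neither were IRF3, IFIT5, IFI6, IFI27 and TAP2. How many of all genes were called the same way in both lines was not counted, so these calls do not set the members apart. Whether a change differed between the lines was tested as the interaction of shRNA and line over all 12 libraries. Among the 22 members, 4 had a higher and 6 a lower change in Rh30 than in RD, where 15.0% and 13.8% of the 15970 genes tested in each line did. TAPBP had the largest difference, -1.24 on the log2 scale (SE 0.12, adjusted p = 2.49e-05). IRF9 differed by -0.72 (adjusted p = 0.00172), DDX58 by -0.57 (adjusted p = 0.00186), EIF2AK2 by -0.43 (adjusted p = 0.0214, lost in 5 of 20 alternatives) and B2M by -0.30 (adjusted p = 0.0135). The difference of IFITM3 (-0.27, adjusted p = 0.0285) was lost in 9 of 20 alternatives and turned in 1, that of IRF7 (0.67, adjusted p = 0.0284) was lost in 7 of 19 and that of IFITM1 (0.55, adjusted p = 0.0207) in 2 of 20. ISG15, which fell in both lines, fell further in RD (difference 0.33, adjusted p = 0.00933).

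A further 14 members were tested for the interaction but were too low in Rh30 for a test there. They entered through their RD level, and the added 1 FPKM damps any change near 0, so their differences restate the change in RD and do not compare responses of expressed genes. They include the calls of OASL (1.195), IFIT2 (0.98), IFIT1 (0.81), MX1 (0.51), IFI35 (-0.86) and HLA-C (-0.62). Those of MX1, IFI35 and HLA-C were lost with a pseudocount of 0.1 FPKM. The limit on damped changes applies to IFIT3 (1.09) too, at a mean of 1.12 FPKM in Rh30 Scramble. It also touches IFITM1 (0.55), at a mean of 3.25 FPKM there, whose call was lost with the pseudocount of 0.1 FPKM as well. With the further 14 members included, 8 of 36 members were called higher and 8 lower, against 14.4% and 13.4% of all 18517 genes. For IRF1 (-0.08, 95% interval -0.27 to 0.11), HLA-E (0.04, interval -0.13 to 0.20) and IFITM2 (0.00, interval -0.16 to 0.16) no difference between the lines passed the test. Of the 36, the number lower was 5 without RD Scramble replicate 3.

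The rest of the pathway was followed with lists written by role, 116 genes in all, of which 88 could be tested in RD and 68 in Rh30. In RD 15 rose and 24 fell, and in Rh30 10 rose and 16 fell, to be read against the shares of all genes given above. The median log2FC was -0.02 in RD and -0.10 in Rh30.

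**Figure D5:**
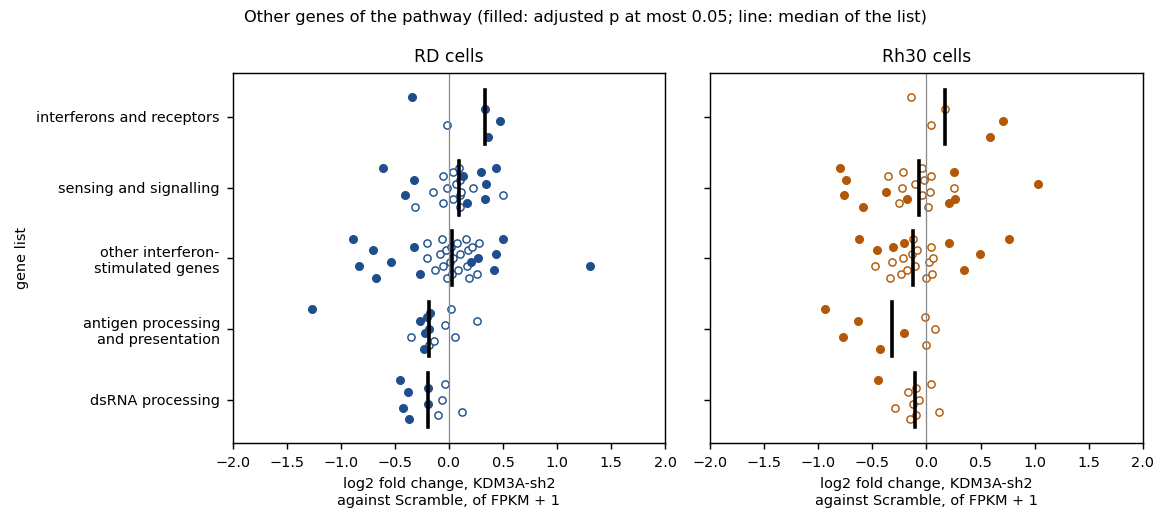
Log2 fold change of KDM3A-sh2 against Scramble (horizontal axis, of FPKM + 1) of each tested gene of 5 further lists (rows) in RD (left) and Rh30 (right). Filled points have an adjusted p of at most 0.05 and the vertical line is the median of the list. No filled point of the antigen processing and dsRNA processing lists lies above 0 in either line.

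Of 14 interferon genes, 9 were listed at 0 in all 12 libraries, IFNB1 among them, and the highest value of any was 0.129 FPKM (IFNL1). None could be tested. Among the 5 receptor subunits tested, 3 rose and 1 fell in RD and 2 rose in Rh30. IL10RB, shared by the receptors of interferon lambda and interleukin-10, rose from 14.3 ± 0.63 to 20.2 ± 0.587 FPKM in RD (adjusted p = 0.000811) and from 7.19 ± 0.562 to 12.4 ± 0.663 FPKM in Rh30 (adjusted p = 0.00133). IFNAR1, a chain of the type I receptor, rose in RD (log2FC 0.36, adjusted p = 0.00541) and had a change of 0.17 in Rh30 (adjusted p = 0.0651). IFNAR2, its partner chain, rose in Rh30 from 25.8 ± 1.35 to 39.3 ± 2.93 FPKM (adjusted p = 0.00167), with a log2FC of -0.02 in RD (adjusted p = 0.918).

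Of the sensing and signalling list 6 rose and 3 fell of 24 tested in RD, and 4 rose and 6 fell of 22 in Rh30. MAVS, the adaptor of the RNA sensors, rose in both lines (0.43 and 0.26 on the log2 scale, adjusted p = 0.000501 and 0.0124). SOCS3, a feedback inhibitor of JAK kinases, fell in both (-0.61 and -0.75, adjusted p = 0.000428 and 0.000168). JAK1, the kinase shared by the interferon receptors, fell in Rh30 from 73.2 ± 2.73 to 41.6 ± 1.45 FPKM (adjusted p = 0.000155), while SOCS1 rose there from 2.36 ± 0.688 to 5.78 ± 0.409 FPKM (adjusted p = 0.00491). In RD these genes did not pass the test (log2FC values -0.06 and -0.06).

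Other interferon-stimulated genes again went both ways, with 6 higher and 7 lower of 35 in RD and 4 and 4 of 23 in Rh30. HERC5, the ligase that attaches ISG15 to proteins, fell in RD from 41.1 ± 1.72 to 21.8 ± 0.652 FPKM (log2FC -0.88, adjusted p = 4.42e-05). In Rh30 it was at 20.8 ± 1.17 and 21.7 ± 0.957 FPKM (adjusted p = 0.488), and the difference between the lines was 0.95 (adjusted p = 9.87e-06). LGALS3BP, a secreted glycoprotein that binds galectins, rose from 354 ± 27.4 to 875 ± 21.4 FPKM in RD (log2FC 1.31, adjusted p = 1.86e-05) and from 126 ± 9.05 to 215 ± 0.617 FPKM in Rh30 (log2FC 0.76, adjusted p = 0.000269). TRIM21, an intracellular antibody receptor, fell by 0.63 in Rh30 (log2, adjusted p = 0.004) and had a change of -0.08 in RD (adjusted p = 0.407).

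The antigen processing list held 7 genes that fell of 14 tested in RD and 5 of 8 in Rh30, and none that rose. CANX (calnexin), the chaperone that holds new MHC class I heavy chains, fell from 465 ± 21.8 to 192 ± 10.7 FPKM in RD (log2FC -1.27, adjusted p = 1.63e-05) and from 353 ± 22.1 to 184 ± 10.6 FPKM in Rh30 (-0.93, adjusted p = 0.000205). PSMB10, a subunit of the immunoproteasome, fell by 0.27 in RD (log2, adjusted p = 0.00707), and its change in Rh30 was -0.01 (adjusted p = 0.939). ERAP2, which trims peptides for MHC class I, fell from 5.19 ± 1.67 to 2.58 ± 0.644 FPKM in Rh30 (adjusted p = 0.0384, lost in 8 of 14 alternatives).

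The proteins that process hairpin RNA into small RNAs are not interferon targets but share their substrate with the sensors. Of 10 such genes 6 fell in RD and 1 in Rh30, and none rose. DICER1, which cuts the hairpin, fell in both lines (-0.42 and -0.45 on the log2 scale, adjusted p = 0.0126 and 0.00653), the RD call being lost in 1 of 15 alternatives. XPO5, which carries precursor hairpins out of the nucleus, fell in RD (-0.46, adjusted p = 0.0088, lost in 1 of 15) and had a change of -0.29 in Rh30 (adjusted p = 0.0998).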

How the data were processed

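The authors aligned directional, single-end mRNA reads to GRCh38 with GSNAP, used SAMtools, and deposited FPKM per gene from Cufflinks, per the labels and Methods. The counting strand setting and annotation release are not given in the sources used here, and the read length differs between the Methods and the labels.

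Of 66095 entries, 120 repeats of an identifier were left out, the one with the higher mean being kept. In 17 genes, none a member, a placeholder was treated as missing. Positions are from GENCODE 29, which holds 86.3% of the identifiers.

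limma 3.58.1 in R 4.3.3 (lmFit, eBayes with trend) was run on log2(FPKM + 1) without genes whose mean in the libraries compared was under 1 FPKM. P-values were two-sided, with Benjamini-Hochberg adjustment over all genes tested and a threshold of 0.05. Fold changes on this scale understate those of low genes. The script was tested on simulated data with independent noise and known shifts. That tests the code and not the calls made here. Tables and figures used Python 3.11.15, pandas 2.3.3 and matplotlib 3.10.9.

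Members and lists were chosen with earlier results of these data known. Values in every library were given for members past 0.58 on the log2 scale in either line, for the member of each role that moved most in either line, and for that with the highest mean. From each further list the 2 genes past the threshold that moved most in either line were named, with IFNB1. Some genes that this rule names are not reported here. BST2 and HLA-C in the comparison of the lines, LIPA, and other members given by mean or fold change were named after their values were seen. Alternatives were a pseudocount of 0.1, no filter, a filter of 10 FPKM, rescaling to one sum, no trend, ANOVA on FPKM, summed repeats, a replicate block, a fit on all 12 libraries and each library left out. No member has a repeated identifier, so summing repeats left the values of the members as they were. For members that setting could act only through limma's shared spread and the adjustment, and it is counted among the alternatives.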

Additional observations from a re-analysis of the deposited data

Results flagged for a closer look

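The interaction term of limma over all 12 libraries passed the threshold in 16 members, and each value is the Rh30 change minus the RD change on the log2 scale. Among members tested in each line, the difference was above 0 for IFIT3 (1.09), IRF7 (0.67), IFITM1 (0.55) and ISG15 (0.33). It was below 0 for TAPBP (-1.24), IRF9 (-0.72), DDX58 (-0.57), EIF2AK2 (-0.43), B2M (-0.30) and IFITM3 (-0.27). The call was lost in 7 of 19 alternatives for IRF7, 2 of 20 for IFITM1, 5 of 20 for EIF2AK2 and 9 of 20 for IFITM3, where it also turned in 1. TAPBP, IRF9, DDX58, B2M, ISG15 and IFIT3 kept theirs in every alternative that gave a value.

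The other 6 were too low in Rh30 for a test there, so their values follow from the change in RD and are no evidence that the lines respond differently. They were OASL (1.195), IFIT2 (0.98), IFIT1 (0.81), MX1 (0.51), IFI35 (-0.86) and HLA-C (-0.62). IFIT3, at a mean of 1.12 FPKM in Rh30 Scramble, is close to that limit. The call was lost in 13 of 20 alternatives for HLA-C, 4 of 13 for MX1 and 1 of 20 for IFI35.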

How the results depend on the processing

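Of the 22 members called in RD 16 kept their call in every alternative that gave a value, as did 6 of the 12 in Rh30 (STAT2, IRF1, ISG15, IFITM2, IFITM3 and HLA-E). The 14 members lower in RD ranged from 9 to 13 with 1 library left out, the 8 higher from 8 to 9, the 4 higher in Rh30 from 3 to 4, the 8 lower in Rh30 from 5 to 6, the 8 lower in the interaction from 5 to 7 and the 8 higher from 6 to 8. The 33 members lower in Rh30 Scramble ranged from 27 to 34 over all alternatives. Without a filter and with ANOVA on FPKM 5 members were lower in Rh30, and with ANOVA 2 were higher. No pairing of the libraries by replicate number was seen. Same-numbered libraries deviated from their group means with correlations of -0.07 to 0.05, and only 1 of 9 correlated best with its own number. These pairs include those between the lines with Scramble. Whether libraries shared a batch or culture was not tested. With the replicate block 5 members were lower in Rh30 and 13 in RD. The sign turned in some settings for 5 changes that no setting called. Leaving out 1 library gave -0.06 to 0.139 for IFIT3 in Rh30, -0.068 to 0.072 for IFNAR2 in RD, -0.145 to 0.003 for SOCS1 in RD, -0.081 to 0.044 for PSMB10 in Rh30 and -0.132 to 0.2 for ERAP2 in RD, and rescaling gave 0.013 for IFNAR2 in RD. It also turned for the interaction of IFITM3 with ANOVA (16.9 FPKM, adjusted p = 0.756). The cause was not tested. Depth is unknown from FPKM, and 16 members could not be tested in Rh30.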
